A study of Homo sapiens with 6 samples.

Results

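The mitochondrial ribosomal protein genes were examined in A549 cells, a human lung adenocarcinoma line, after knockdown of BAP18. They were taken as every gene symbol made of MRPL or MRPS, a number and an optional A, B or C, which gave 78 of the 35474 genes listed. All 78 passed edgeR's filter on low counts, which left 20776 genes to test. RNA was collected 48 h after transfection from 3 cultures given siRNA against BAP18 (siBAP18) and from 3 given a non-specific siRNA (siCtrl), and the poly(A) fraction was sequenced. The cells carried no other treatment according to the labels, and the sources used here leave out which BAP18 siRNA was transfected.

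Mitochondrial ribosomes translate the few respiratory chain proteins that are encoded by the mitochondrial genome. Their proteins are made from nuclear genes, translated in the cytosol and imported, and they are joined in the organelle to ribosomal RNAs transcribed from mitochondrial DNA. The small subunit reads the mRNA and the large subunit joins the amino acids. Part of each subunit descends from the bacterial ribosome, and the rest was added during the evolution of mitochondria.

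More of these genes were higher than lower after BAP18 knockdown. Of the 78, 46 were higher in siBAP18 cells, 8 were lower and 24 were not called, where a call is an adjusted p under 0.05 in the quasi-likelihood test of edgeR, adjusted by Benjamini-Hochberg over all tested genes. Over all tested genes, 24.5% were called higher and 25.1% lower. Among the tested genes with an average log2 CPM at or above that of the lowest member, a limit chosen after the values had been seen, 30.6% were called higher and 33% lower. The median log2 fold change (siBAP18 over siCtrl) of the 78 genes was 0.22, beside a median of 0.0010 over all tested genes. The changes were small. The highest fold change was 0.92 and the lowest −0.54, so no member passed an absolute log2 fold change of 1, a threshold that 8.46% of tested genes passed together with the adjusted p. With DESeq2's Wald test and limma on log2(RPKM + 1) no member passed it either, and 56 members (71.8%) had an unadjusted edgeR p under 0.05, against 54.9% of tested genes. Calls, medians and counts below come from the same edgeR comparison, and a fold change is on the log2 scale throughout.

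The knockdown was seen in every library. BAP18, listed as C17orf49, was at 13.97, 16.1 and 15.1 CPM (counts per 1000000 counts of the scaled library) in siCtrl and at 2.21, 2.35 and 2.66 CPM in siBAP18. Libraries held 42094524 to 56548620 counts, and each member had between 170 and 17424 counts in each library. Genes of the mitochondrial genome took 6.86% to 7.43% of the counts in siCtrl and 5.27% to 6.14% in siBAP18. The epithelial markers KRT8, KRT18, KRT7, EPCAM and CDH1 were all detected and were called in both directions. KRT7 was higher at a log2 fold change of 0.43, and KRT8 (−0.37), KRT18 (−0.24), EPCAM (−0.41) and CDH1 (−1.32) were lower. Of the markers of other cell types, PECAM1, VWF, COL3A1 and ALB stayed under 1 CPM in every library, and CD68, which also belongs to lysosomes, rose from 66.2 ± 3.47 to 136 ± 21.8 CPM (SD, n = 3). The immune markers PTPRC and CD3E were not among the listed genes and could not be checked. CPM measures a share of the library, so fewer cells with an mRNA and less of it per cell cannot be told apart.

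**Figure D1:**
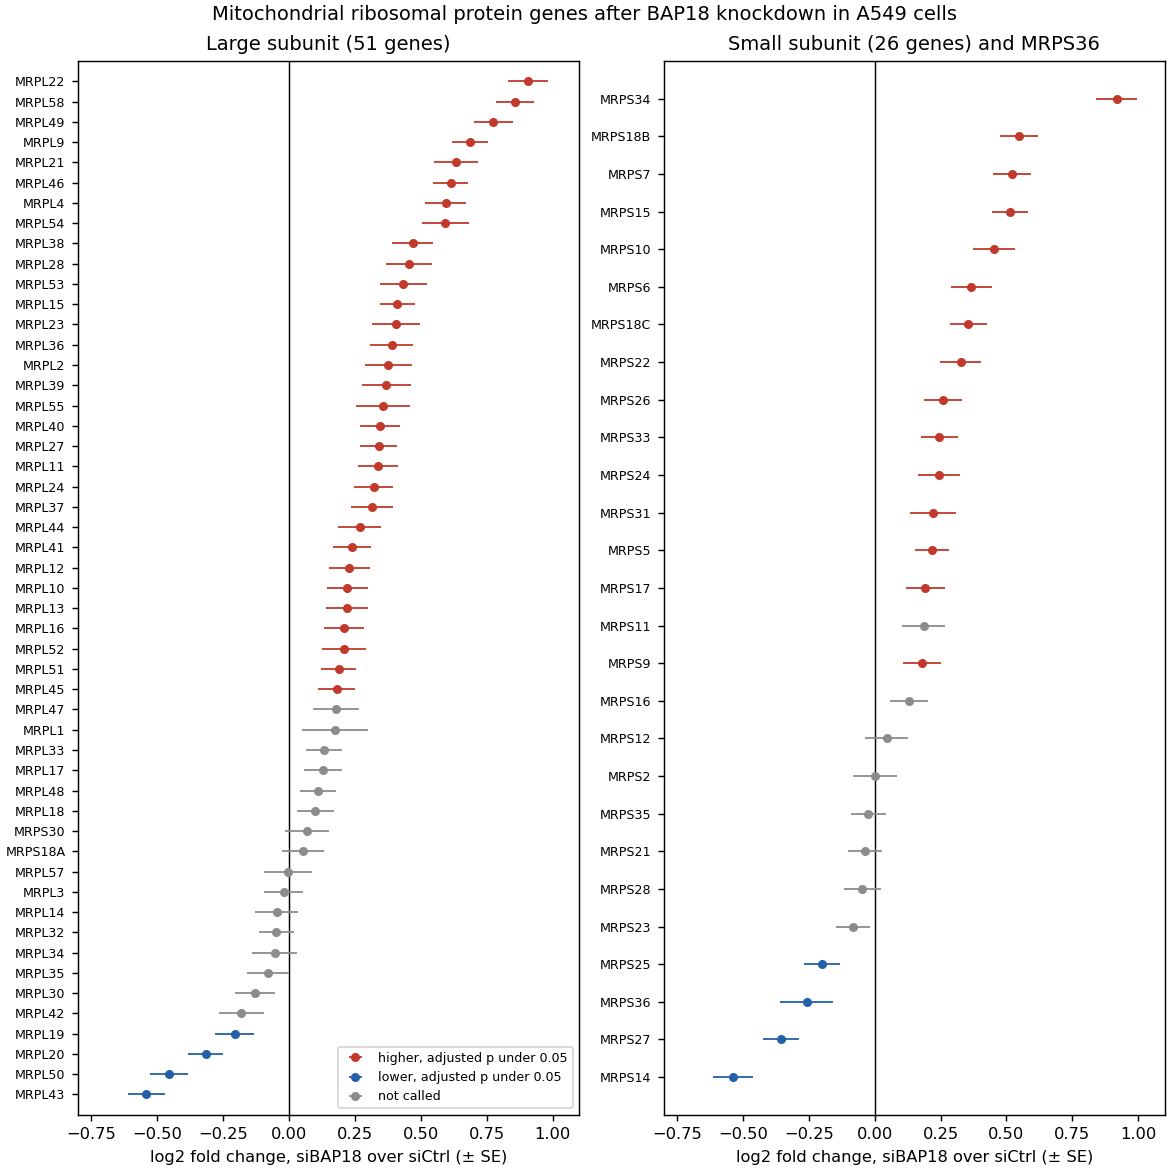
Log2 fold change, siBAP18 over siCtrl, of each of the 78 genes (x axis) with its standard error as the bar; 51 large subunit genes are on the left, and 26 small subunit genes with MRPS36 on the right. Red points were called higher (46 genes), blue points lower (8) and grey points were not called (24), and no point lies beyond 0.92 or −0.54.

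Promoters of these genes are known for sites of the ETS family, whose member GABP serves many mitochondrial genes, and for sites of YY1 that lie over the start codon. RefSeq promoters of GRCh38.p14, from 250 bases before the gene start to 50 after it, were found for 69 of the 78 genes. An ETS core, CCGGAAG on either strand, stood in 29 of the 69 (42%), against 10.7% of all 27305 promoters and 17.4% of the promoters of tested genes. The YY1 core, AAGATGGC on either strand, stood in 20 (29%), against 3% of all promoters and 4.9% of those of tested genes. The NRF1 core, GCGCANGCGC, stood in 8 (11.6%), against 6.3% and 10.6%. The E-box CACGTG stood in 6 (8.7%), against 7.4% and 9.9%. No motif contains another, and the motifs were chosen after the values had been seen. A match is a description of the letters and not a measured site.

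The windows below show the ETS core, in capitals, in the promoters of members that were higher (MRPS34, MRPL58) and lower (MRPL20, MRPL43), 5′ to 3′ on the gene's strand. The coordinates are chr16:1773146-1773174 and chr17:75012651-75012679 for the first pair, and chr1:1407320-1407348 and chr10:100987498-100987526 for the other. MRPL58 is on the + strand and the other genes are on the − strand. In MRPS34 the core lies in the reverse orientation and appears in 2 copies within the window.
MRPS34: gacaccggcctCTTCCGGtgaCTTCCGGc
MRPL58: ggaagcgcccgCCGGAAGcagtcgcaaga
MRPL20: cgaccttcgccCCGGAAGtatcgcagggg
MRPL43: tcgtcccggaaCCGGAAGcctcgaggttt

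The next windows show the YY1 core, in capitals, which holds an ATG, in members that were higher (MRPL46, MRPS18B), lower (MRPS27, MRPL50) and not called (MRPS30). They lie at chr15:88467362-88467391 on the − strand, chr6:30617852-30617881 on the + strand, chr5:72320206-72320235 and chr9:101398577-101398606 on the − strand, and chr5:44808949-44808978 on the + strand.
MRPL46: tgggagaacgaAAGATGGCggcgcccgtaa
MRPS18B: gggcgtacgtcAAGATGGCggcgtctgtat
MRPS27: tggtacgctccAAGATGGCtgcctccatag
MRPL50: ggatctcatcgAAGATGGCggcgcgatctg
MRPS30: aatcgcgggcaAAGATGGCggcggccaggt

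The YY1 core lay mostly just after the gene start. Of its 21 matches in members, 15 read forward and began at or after the gene start, against 379 of the 865 matches in all promoters (43.8%). Both cores stood in promoters of members of each kind of call. ETS cores stood in 17 of 40 promoters of members that were higher, 2 of 7 that were lower and 10 of 22 not called, and YY1 cores in 11, 3 and 6. Members with an ETS core had a median log2 fold change of 0.21 and those without it 0.21. Medians for the YY1 core were 0.18 with and 0.22 without. All 6 members with an E-box were called higher and had a median of 0.37, against 0.19 without, which was noticed after the values had been seen and was not tested.

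The 6 members with the smallest adjusted p among those that were higher came from both subunits. MRPS34, a mitochondria-specific protein of the small subunit, was at 147, 140.1 and 148 CPM in siCtrl and at 284, 236 and 302 CPM in siBAP18. Every siBAP18 library lay above every siCtrl library, with replicate 2 the lowest of the siBAP18 cultures. Its log2 fold change was 0.92 (SE 0.0775, adjusted p = 3.73e-10). MRPS34 also had the highest mean level per length of all members, 191 RPKM (counts per kilobase of exon, scaled to the library's total). The gene lies on chromosome 16 from 1771890 to 1773155 and shares no exonic base with another listed gene.

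MRPL22, which lines the tunnel through which the new protein leaves the large subunit, was at 18.7, 19.3 and 17.6 CPM in siCtrl and at 35.5, 32.0 and 36.9 CPM in siBAP18. MRPL58, also called ICT1, is a large subunit protein with peptidyl-tRNA hydrolase activity that releases stalled chains. Its level was 33.6, 34.3 and 37.0 CPM in siCtrl and 66.3, 58.4 and 65.5 CPM in siBAP18. For both genes the groups were far apart compared with the spread among replicates. The log2 fold changes were 0.91 for MRPL22 (SE 0.0764, adjusted p = 3.54e-10) and 0.86 for MRPL58 (SE 0.0723, adjusted p = 3.55e-10). Neither gene has an exonic overlap with another listed gene.

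MRPL49, MRPL9 and MRPL46 completed the 6. MRPL49, a mitochondria-specific protein, was at 43.9, 41.6 and 45.8 CPM in siCtrl and at 73.8, 69.2 and 81.8 CPM in siBAP18, a log2 fold change of 0.78. MRPL9, which has a bacterial counterpart, was at 39.6, 38.3 and 37.7 CPM in siCtrl and at 64.1, 58.3 and 63.5 CPM in siBAP18, a log2 fold change of 0.69. MRPL46, also mitochondria-specific, was at 58.4, 56.4 and 57.2 CPM in siCtrl and at 90.6, 84.0 and 88.9 CPM in siBAP18, a log2 fold change of 0.61. The groups did not overlap for any of them, and replicate 2 was again the lowest siBAP18 culture in each. Exons of MRPL9 overlap other listed genes over 39.7% of their length and those of MRPL49 over 20.7%, with genes on the opposite strand among them. Whether strand was used in counting is not stated, so reads there cannot be assigned to 1 gene.

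**Figure D2:**
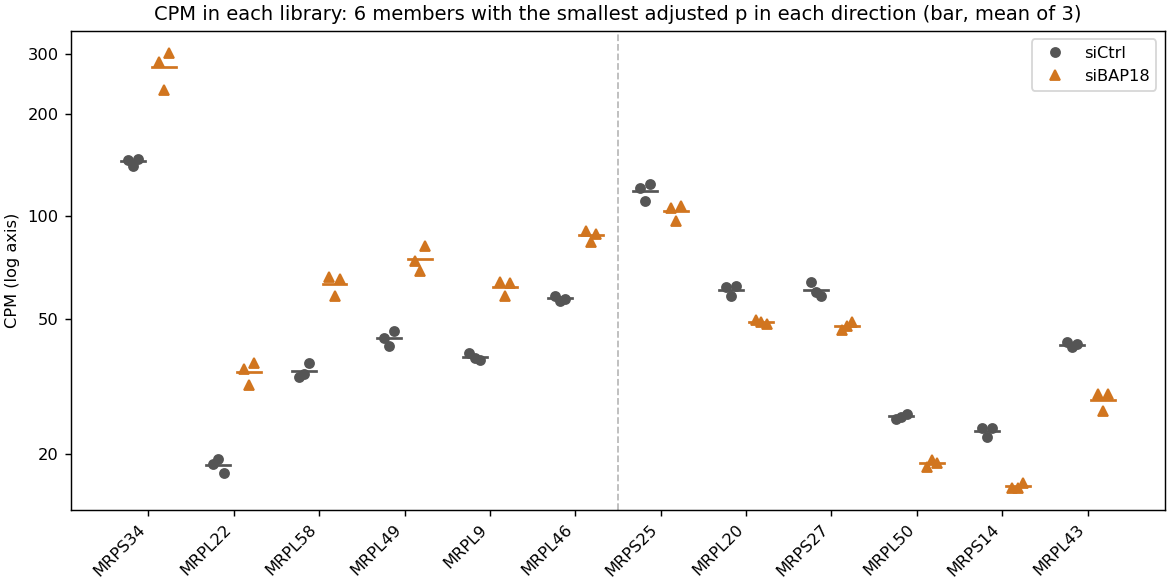
CPM on a log axis in each of the 6 libraries for the 6 members with the smallest adjusted p among those higher in siBAP18 (left of the dashed line) and among those lower (right). Points are libraries, circles siCtrl and triangles siBAP18, and bars are means of 3; the groups do not overlap for any of the 12, from MRPS34 (145 and 274 CPM) to MRPL43 (41.9 and 28.9 CPM).

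The 8 members that were lower were MRPL43, MRPS14, MRPL50, MRPS27, MRPL20, MRPS36, MRPL19 and MRPS25. MRPL43, a mitochondria-specific large subunit protein, fell from 42.7, 41.2 and 42.0 CPM to 29.9, 26.7 and 29.9 CPM, a log2 fold change of −0.54 (SE 0.0712, adjusted p = 6.27e-07). MRPS14, a small subunit protein with a bacterial counterpart, fell from 23.8, 22.4 and 23.8 CPM to 15.9, 15.9 and 16.4 CPM, a log2 fold change of −0.54 (SE 0.0748, adjusted p = 1.44e-06). Each siBAP18 library lay below each siCtrl library for both. Exons of MRPL43 overlap SEMA4G and C10orf2 on the opposite strand over 36.9% of their length, and C10orf2, which encodes the mitochondrial helicase Twinkle, had a log2 fold change of 0.26 and was called higher. Of the 8 lower members, 6 share exonic bases with another listed gene, while 38 of the 78 members share none. Besides MRPL43, the share was 22.2% for MRPS25, 15.5% for MRPL20, 13.5% for MRPS14 and 2.9% each for MRPS27 and MRPL19. The same limit on assigning reads holds there.

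MRPL50, another mitochondria-specific large subunit protein, fell from 25.3, 25.8 and 26.3 CPM to 18.3, 19.2 and 18.8 CPM, a log2 fold change of −0.46. MRPS27, a pentatricopeptide repeat protein of the small subunit, fell from 64.2, 59.8 and 58.2 CPM to 46.3, 47.4 and 48.8 CPM, a log2 fold change of −0.36. MRPL20, a large subunit protein that binds ribosomal RNA, fell from 61.9, 58.3 and 62.4 CPM to 49.6, 48.95 and 48.2 CPM, a log2 fold change of −0.32. The replicates of each group were close together and the groups did not overlap. MRPS25, a mitochondria-specific small subunit protein, was at 121, 110.7 and 124 CPM in siCtrl and at 106, 97.0 and 107 CPM in siBAP18, a log2 fold change of −0.20 (adjusted p = 0.0183). MRPL19, which has a bacterial counterpart, was lower at −0.21 (adjusted p = 0.0238). With an offset for gene length and GC content, 5 of the 8 calls were lost. MRPL19 turned to 0.07 (adjusted p = 0.459), MRPL50 shrank to −0.16 (adjusted p = 0.052) and MRPS27 to −0.19 (adjusted p = 0.0507). MRPS25 was at −0.18 (adjusted p = 0.0678), and its call was also lost with the offset for length (adjusted p = 0.146) and without siCtrl replicate 1 (adjusted p = 0.0838) or 3 (adjusted p = 0.118).

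The libraries of the 2 groups separated for most members. For 45 members all 3 siBAP18 libraries lay above the siCtrl libraries, for 12 all 3 lay below, and for 21 the groups overlapped. Over all tested genes 27.6% lay wholly above and 29% wholly below. Of the 46 called higher, 43 were separated, and MRPL12, MRPL52 and MRPS9 were not. All 8 called lower were separated. As a share of all counts, the 78 genes together made up 0.393%, 0.384% and 0.388% in the siCtrl libraries against 0.473%, 0.451% and 0.471% in the siBAP18 libraries, so no siBAP18 library came within the range of the siCtrl libraries.

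Among the 46 that were higher, 14 had a log2 fold change under 0.25, 20 between 0.25 and 0.5, and 12 above 0.5. Their median was 0.36, and the median of the 8 that were lower was −0.34. A total of 14 members lay within 0.1 of 0, and the 6 nearest to it were MRPS2, MRPL57, MRPL3, MRPS35, MRPS21 and MRPS12. With an offset for length and GC content MRPS2, MRPS21 and MRPS12 were called lower, at −0.21, −0.18 and −0.18. The median standard error was 0.0761 over the 78 genes.

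Both subunits held genes called in each direction. Of the 51 large subunit genes, 31 were higher, 4 lower and 16 not called, with a median log2 fold change of 0.22. Of the 26 small subunit genes, 15 were higher, 3 lower and 8 not called, with a median of 0.20. Genes with a bacterial counterpart numbered 46, of which 26 were higher and 3 lower, with a median of 0.21. Those of mitochondria-specific proteins numbered 31, of which 20 were higher and 4 lower, with a median of 0.24. The difference between these classes was not tested.

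Some members carry names that do not match their place. MRPS30 and MRPS18A sit in the large subunit. MRPS30 was at 14.8, 15.8 and 15.3 CPM in siCtrl and at 17.1, 16.4 and 14.5 CPM in siBAP18, with overlapping groups and no call (adjusted p = 0.523), but with the offset for length and GC content it was called higher at 0.46 (adjusted p = 2.46e-05). MRPS36, now known as a subunit of the 2-oxoglutarate dehydrogenase complex of the citric acid cycle, was at 8.74, 8.47 and 8.77 CPM in siCtrl and at 8.05, 6.88 and 6.76 CPM in siBAP18. It was called lower at −0.26 (adjusted p = 0.0366), and with the offset for length and GC content it was at −0.02 (adjusted p = 0.877). The call was also lost in 9 other alternatives, among them DESeq2's Wald test (−0.25, adjusted p = 0.106). MRPL12, a large subunit stalk protein that also binds the mitochondrial RNA polymerase, was at 83.2, 74.5 and 84.3 CPM in siCtrl and at 95.9, 83.4 and 104 CPM in siBAP18. The groups overlapped by the value of siBAP18 replicate 2, and the log2 fold change of 0.23 (adjusted p = 0.0166) was not called without siBAP18 replicate 1 (adjusted p = 0.0648) or siCtrl replicate 2 (adjusted p = 0.145), nor with the offset for length (adjusted p = 0.119) or for length and GC content (adjusted p = 0.689). An unnamed transcript on the same strand covers 68.2% of its exons.

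The MRPS18 family has 3 paralogs, which take different places in the ribosome. MRPS18B was at 65.1, 63.3 and 69.1 CPM in siCtrl and at 98.8, 87.1 and 103 CPM in siBAP18, a log2 fold change of 0.55 (adjusted p = 6.29e-07). MRPS18C was at 59.1, 51.2 and 55.6 CPM in siCtrl and at 73.8, 67.8 and 70.6 CPM in siBAP18, a log2 fold change of 0.36 (adjusted p = 1.56e-04). Both were separated between the groups. MRPS18A was at 62.0, 56.5 and 55.6 CPM in siCtrl and at 59.3, 52.8 and 68.8 CPM in siBAP18, so the groups overlapped, with a log2 fold change of 0.05 (adjusted p = 0.622). This last value turned negative without siBAP18 replicate 3 and with either length offset. Exons of MRPS18A overlap RSPH9 on the opposite strand over 47% of their length, and those of MRPS18C overlap FAM175A over 40.2%.

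Levels per length ran over a wide range. Besides MRPS34, the highest was MRPS26, a mitochondria-specific small subunit protein, with a mean of 128 RPKM. Its CPM was 131, 129 and 134 in siCtrl and 159, 141 and 171 in siBAP18, which did not overlap, with a log2 fold change of 0.26 (adjusted p = 0.00406). Its call was lost with the offset for length (adjusted p = 0.0501) and with that for length and GC content (adjusted p = 0.439). The lowest per length were MRPL42, at a mean of 0.728 RPKM over a listed exonic length of 16393 bases, and MRPL1 at 2.26 RPKM. MRPL42, a mitochondria-specific protein, was at 12.2, 12.8 and 13.0 CPM in siCtrl and at 11.03, 10.7 and 11.9 CPM in siBAP18, separated but not called at −0.18 (adjusted p = 0.0865). It was called lower without siBAP18 replicate 3 (adjusted p = 0.0264) and higher with the offset for length and GC content (adjusted p = 0.0474). MRPL1, which has a bacterial counterpart, was at 4.10, 3.91 and 4.36 CPM in siCtrl and at 4.74, 4.98 and 4.19 CPM in siBAP18, so its groups overlapped. Its log2 fold change of 0.17 was not called, and with the same offset it was called at 0.32 (adjusted p = 0.028).

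Length and GC content moved with the fold change over all genes. Among tested genes at or above the level of the lowest member, the median log2 fold change was −0.27, −0.05, 0.09 and 0.15 in 4 equal bins from the least to the most GC. The members' medians in the same bins were 0.18 (22 genes), 0.13 (21), 0.32 (18) and 0.36 (17), each above that of all genes in its bin. From the shortest to the longest of 4 bins by exonic length, all genes went from 0.09 to −0.14. Members had medians of 0.22 in each of the 3 shorter bins (49, 17 and 11 genes), and the longest held MRPL42 alone at −0.18. With an offset for length, 33 members were higher and 6 lower, with a median of 0.17, beside 24.6% and 23.1% of tested genes. An offset for length and GC content gave 34 and 8, with a median of 0.15, but these were partly different genes. In that fit 24.5% of tested genes were called higher and 23% lower. Of the 46 higher members 29 were still called higher and 17 were not called, and 5 others were newly called higher. Of the 8 lower members MRPL43, MRPS14 and MRPL20 were still called lower and 5 were not called, and MRPL14, MRPL34, MRPS2, MRPS12 and MRPS21 were newly called lower, at −0.18 to −0.26. Both offsets were fitted on tested genes above a limit in mean CPM and then applied to all tested genes. Genes without a GC value were left out of the fit for length and GC content and were given the median GC content.

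**Figure D3:**
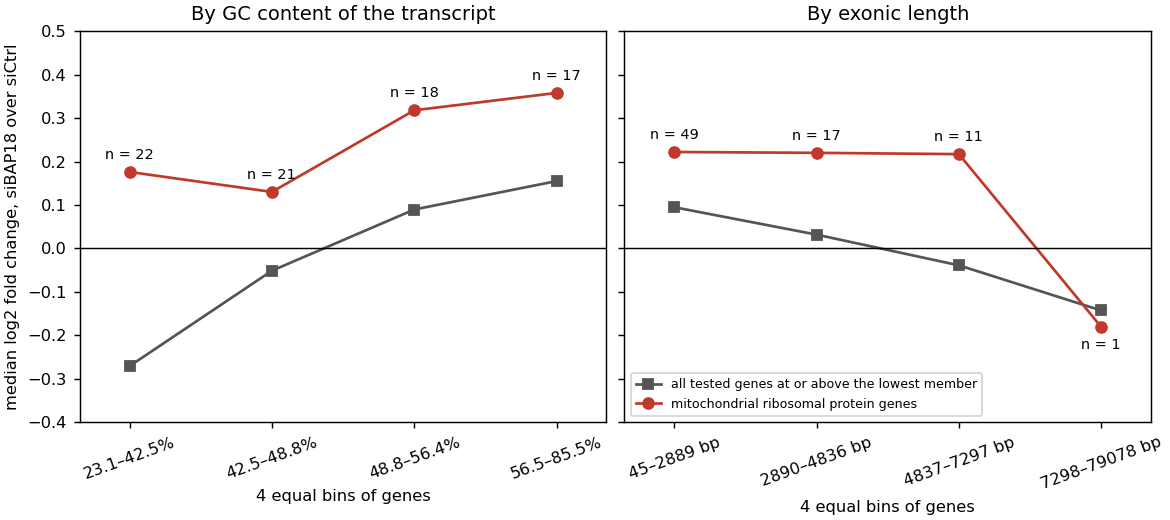
Median log2 fold change, siBAP18 over siCtrl (y axis), in 4 equal bins of genes by GC content of the transcript (left) and by exonic length (right). Red circles are the mitochondrial ribosomal protein genes with their number, grey squares are all tested genes at or above the lowest member; the red circles are above the grey squares in every bin except the one of longest genes, which holds 1 member (MRPL42).

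Gene starts close to another gene on the opposite strand were common. A start here is the outer end of a gene's listed exons, which can differ from the RefSeq start used for the promoters. A start on the opposite strand lay within 1000 bp of that of 33 members (42.3%), against 26% of tested genes. Those 33 had 20 genes higher and 3 lower, with a median of 0.22, and the other 45 had 26 higher and 5 lower, also with a median of 0.22. Pairs did not always move together. Of the 20 such members that were higher, the neighbour was higher in 8, lower in 3, not called in 7 and not tested in 2. Over all tested genes, 24.5% were higher and 25.1% lower. Exons of the higher neighbours FAU, OAZ3 and GGA3 overlap those of MRPL49, MRPL9 and MRPS7 on the opposite strand. Those of the lower neighbour MTBP overlap MRPL13, so reads shared by such pairs cannot be assigned to 1 gene. MRPL46 and MRPS11, both members, start 34 bp apart on chromosome 15. MRPL46 was higher at 0.61, and MRPS11 was not called at 0.19 (adjusted p = 0.0599). MRPL27 was higher at 0.34 beside the DNA repair gene EME1, 6 bp away and lower at −0.55. MRPL36 was higher at 0.39 and NDUFS6, a respiratory complex I subunit, at 0.49, with listed starts 34 bp apart. That distance depends on the start used. MRPL36 is listed up to 1801366 on the − strand, but the YY1 core just before its RefSeq start lies within chr5:1799854-1799883. These pairs were chosen after their values were seen. Pseudogenes named after members could share reads with them. Those that passed the filter were MRPS31P4 at 7.13 CPM in siCtrl, MRPS31P5 at 4.48 CPM and MRPL50P2 at 0.434 CPM, and they were not called (adjusted p = 0.903, 0.153 and 0.326).

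The subunits that bear other names were a small group of 5, of which 2 were higher, 1 lower and 2 not called, with a median of 0.02. GADD45GIP1, which sits at the exit of the peptide tunnel, was at 66.7, 63.1 and 66.2 CPM in siCtrl and at 117, 103 and 130 CPM in siBAP18, a log2 fold change of 0.83 (adjusted p = 1.49e-09). AURKAIP1, of the small subunit, was higher at 0.47 and PTCD3, also of the small subunit, was lower at −0.17 (adjusted p = 0.049). DAP3, which binds GTP in the small subunit, was not called at 0.02, nor was CHCHD1 at −0.02.

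Factors that assemble the mitochondrial ribosome were called in both directions. Of 29, 13 were higher, 5 lower and 11 not called, with a median of 0.13. NGRN, needed for the 16S ribosomal RNA, rose from 192 ± 1.28 to 323 ± 14.4 CPM (SD, n = 3). DDX28, an RNA helicase of large subunit assembly, rose from 8.09 ± 0.292 to 14.3 ± 1.18 CPM (SD, n = 3). MRM3, which methylates the 16S ribosomal RNA, had a log2 fold change of 0.55. On the other side, C1QBP fell from 373 ± 11.1 to 276 ± 11.6 CPM (SD, n = 3), MTERF3 had a log2 fold change of −0.53 and TRMT61B, an RNA methyltransferase, −0.34. Of the 13 that were higher, MRM1, MRM2, RPUSD3, YBEY and GTPBP6 were not called with the offset for length and GC content. The 5 that were lower kept their calls in that fit, GTPBP10 was newly called higher and MPV17L2 newly called lower.

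Translation factors of mitochondria were mostly not called. Of 17, 3 were higher and 2 lower, with a median of −0.04. TACO1, an activator of translation of the COX1 mRNA, was higher at 0.68, and so were the elongation factor TUFM at 0.31 and the ribosome recycling factor MRRF at 0.19. GFM1, the elongation factor that moves the ribosome along the mRNA, fell from 51.9, 55.5 and 48.0 CPM to 33.0, 34.1 and 28.3 CPM, a log2 fold change of −0.70 (adjusted p = 4.42e-08). The initiation factor MTIF3 was lower at −0.29.

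Factors for mitochondrial RNA and DNA had 6 of 24 higher and 9 lower, with a median of −0.05. SUPV3L1, a helicase of RNA decay, was higher at 0.54, HSD17B10, a subunit of mitochondrial RNase P, at 0.42, and the DNA polymerase POLG at 0.34. The transcription factor TFAM, which also packs mitochondrial DNA, was lower at −0.38 (adjusted p = 1.20e-04). MTERF2 was lower at −0.76 and FASTKD3 at −0.73. Of the 9 that were lower, only MTERF2 and FASTKD3 were still called with the offset for length and GC content. TFAM (adjusted p = 0.332), LRPPRC, PNPT1, TRMT10C, KIAA0391, MTERF1 and FASTKD1 were not called in that fit. Of the 6 that were higher, ELAC2 and C10orf2 were not called, and TEFM was newly called higher at 0.34. The same offset left TUFM (adjusted p = 0.256) and PTCD3 (adjusted p = 0.403) without a call. Of the translation factors, MTRF1L was newly called higher at 0.23 (adjusted p = 0.00666) and PDF newly lower at −0.27 (adjusted p = 0.0301).

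Regulators of mitochondrial biogenesis split as well. Of 10, 4 were higher and 1 lower, with a median of 0.07. GABPB1 and GABPB2, subunits of the ETS factor GABP, were higher at 0.34 each, and the coactivator PPRC1 at 0.28. The coactivator PPARGC1A fell from 15.5, 15.4 and 13.99 CPM to 9.19, 9.79 and 8.29 CPM, a log2 fold change of −0.72 (adjusted p = 3.16e-07). GABPA was not called at −0.09, YY1 at 0.10, NRF1 at 0.04 and MYC at −0.03. With the offset for length and GC content, GABPA was newly called higher at 0.25 (adjusted p = 0.0143). YY1 was newly higher at 0.17 (adjusted p = 0.0319) and MYC newly lower at −0.18 (adjusted p = 0.0288) in that fit. ESRRA, higher at 0.27 in the main comparison, was not called with the offset (0.10, adjusted p = 0.254).

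The RNAs that these proteins bind and translate were lower or not called. MT-RNR2, the large subunit ribosomal RNA, was at 19320, 18169 and 17943 CPM in siCtrl and at 13561, 12771 and 14933 CPM in siBAP18, a log2 fold change of −0.43 (adjusted p = 2.59e-05). MT-RNR1, the small subunit ribosomal RNA, was at 289, 265 and 279 CPM in siCtrl and at 322, 270.2 and 307 CPM in siBAP18, which overlapped, and was not called at 0.11 (adjusted p = 0.205). Both come from poly(A) libraries, which hold only part of the ribosomal RNA. Of the 13 mRNAs of the mitochondrial genome, 9 were lower and 4 not called, with fold changes from −0.45 to −0.04.

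Other gene groups gave a scale for these counts. Of 77 tested nuclear genes for respiratory chain subunits, 29 were higher and 10 lower, with a median of 0.12. Of 84 tested cytosolic ribosomal protein genes, 17 were higher and 3 lower, with a median of 0.09. The differences between these groups and the mitochondrial ribosomal protein genes were not tested.

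**Figure D4:**
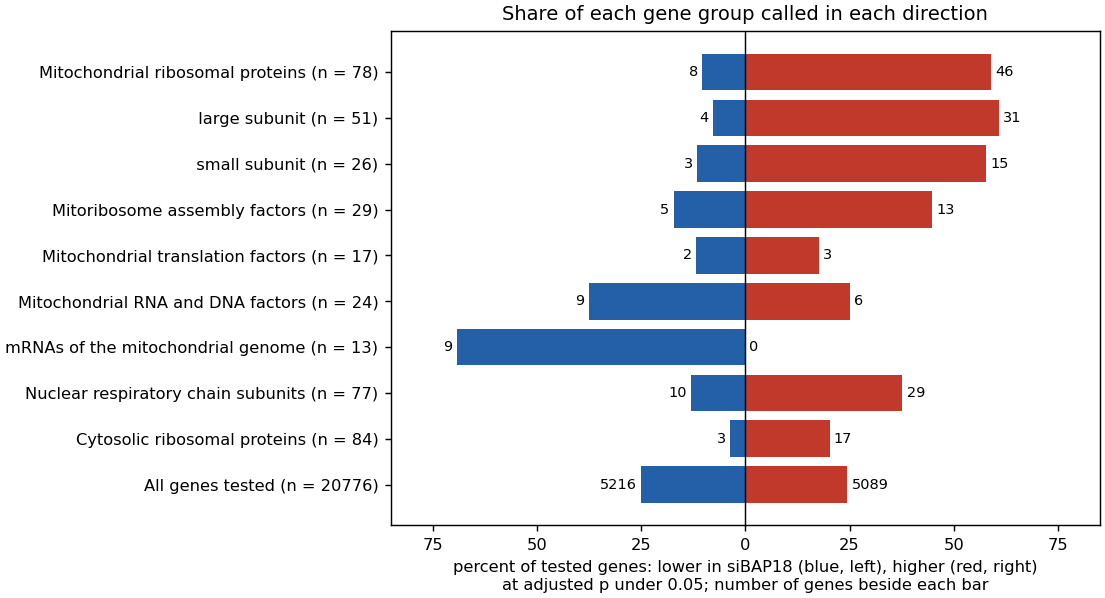
Percent of the tested genes of each group that were called higher (red, right) or lower (blue, left) in siBAP18 at an adjusted p under 0.05, with the number of genes beside each bar. Higher calls were 46 of 78 for the mitochondrial ribosomal proteins, 17 of 84 for cytosolic ribosomal proteins and 5089 of 20776 for all tested genes, and lower calls were 9 of 13 for mRNAs of the mitochondrial genome.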

How the data were processed

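The authors deposited whole-number counts per gene, without normalization, and RPKM values for the 6 A549 libraries. The RPKM values equal the counts divided by the listed exonic length and the library's column total. Libraries were poly(A)-selected, dUTP strand-specific and paired-end per the labels. The submitters' processing notes name the builds hg38 and GRCm38, and all 78 member genes lay at the same place and strand in the human annotation GENCODE 29. Aligner, counting program and use of strand are not given in the sources used here. Between 72.7% and 75.2% of the counts from 1 to 49 in each library were even, a pattern expected where both mates of a pair are counted, so a count may not be an independent fragment. Library totals were 42094524 to 56548620 counts. A count of 0 allows up to 3 counts of the total, or 0.0514 to 0.074 CPM, which covers counting error only.

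Counts were compared in R 4.3.3 with edgeR 4.0.16 (filterByExpr, TMM, quasi-likelihood test, Benjamini-Hochberg adjustment over 20776 genes). Standard errors were derived from each fold change and its F statistic. DESeq2 1.42.0 and limma 3.58.1 served as alternatives. For limma, log2 RPKM was used with a pseudocount of 1 or 0.1, with and without a mean RPKM of at least 0.5. The edgeR steps were also run on simulated counts in which few genes changed, as many up as down. That run cannot show how the steps behave where as many genes change as here. The labels call the replicates biological. Chi-square per degree of freedom between replicates was 4.13 to 4.79 in siCtrl and 11.1 to 25.7 in siBAP18, so no library was a copy of another. Replicate numbers gave little sign of pairing the libraries, though 3 libraries per group are few to judge it.

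Members and gene lists were chosen with earlier results of these data known. Genes named with values in every library were the 6 higher and the 6 lower members of smallest adjusted p, the 2 highest and 2 lowest in RPKM, the MRPS18 paralogs, and MRPS30, MRPL12, MRPL58 and MRPS36. Up to 3 genes per direction were named from each related list. Promoters came from RefSeq on GRCh38.p14, and GC content from GENCODE 29 transcripts matched by name or position. Text tables and plots were made in Python 3.11.15 with pandas 2.3.3 and matplotlib 3.10.9.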

Additional observations from a re-analysis of the deposited data

How the results depend on the processing

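In the alternatives on all 78 members, 33 to 49 members were called higher and 5 to 8 lower. These alternatives were other scalings, tests, filters, thresholds, offsets and left-out libraries. Over all genes in the same fits, 11.7% to 26% were called higher and 10.3% to 26.7% lower. None of the 54 members called in the main comparison was called in the opposite direction under any of 20 alternatives, but MRPL42, not called there, was called lower without siBAP18 replicate 3 and higher with the offset for length and GC content. The call was the same in all 20 for 24 of the 46 that were higher, and for MRPL43, MRPS14 and MRPL20 (3 of the 8) among those that were lower. Exons of MRPL43, MRPS14 and MRPL20 each overlap another listed gene in part. With each library left out in turn, 34 to 49 were higher, 5 to 8 lower and 0 to 1 past the fold threshold. The median of the members was 0.201 to 0.280. Over all genes in those fits, 20.7% to 24.8% were higher and 21.3% to 25.4% lower. Without siBAP18 replicate 2 the median was 0.280, and MRPS34 passed an absolute log2 fold change of 1 (1.02). Without siCtrl replicate 1 or 3, 5 members were lower.

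With an offset for length and GC content, chosen after seeing the data, the median was 0.15, and 1 member, MRPL22, passed the fold threshold (1.15). In that fit 29 of the 46 higher and 3 of the 8 lower members were still called, and 11 members changed sign, of which MRPL19 (−0.21 to 0.07) had been called. Among the 38 members with no exonic overlap, also chosen after seeing the data, 24 were higher and 2 lower, and fewer genes were counted. At an adjusted p under 0.01, 35 of the 78 members were higher and 5 lower, beside 19.3% and 19.9% of tested genes. MRPL42 turned from −0.18 to 0.0010 with the length offset and to 0.25 with that for length and GC content. MRPS18A turned from 0.05 to −0.012 and −0.14 in the same offsets and lay between −0.049 (without siBAP18 replicate 3) and 0.14 with each library left out. The causes were not tested.

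Deviations from the group means correlated with a Pearson r of −0.017, 0.051 and 0.0038 across genes between libraries with the same number, and 2 of the 6 libraries correlated best with their own number. With a replicate block 47 members were higher and 8 lower, beside 25.5% and 26.5% of tested genes, and the median stayed at 0.22. An offset for GC content from a genome was planned and not run, since no genome sequence was used here. The lowest member had 170 counts in 1 library, so depth limited mainly the members of low level such as MRPL1 (SE 0.124).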
